A study of Mus musculus with 2 samples.

Results

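The genes of MHC class I antigen presentation were described in maps of accessible chromatin from mouse thymus. The 10 genes were taken by name: H2-K1, H2-D1, B2m, Tap1, Tap2, Tapbp, Psmb8, Psmb9, Psmb10 and Nlrc5, out of 21938 protein-coding genes on the 19 autosomes, X and Y. Chromatin was profiled by DNase-seq, in which DNase I cuts open DNA and the cut ends are sequenced. The study holds 1 group of 2 samples, whole thymus of male B6CASTF1/J mice aged 2 months, numbered replicate 1 and replicate 2 in the labels. B6CASTF1/J is the F1 cross of C57BL/6J and CAST/EiJ mice. The labels number a separate animal for each sample and give both the same donor identifier. No treated, mutant or older group is part of the design, so the 10 genes are set beside all coding genes and replicate 1 beside replicate 2, and no test between conditions could be made.

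MHC class I molecules show peptides from inside the cell to CD8+ T cells, and in the thymus they select developing T cells. H2-K1 and H2-D1 encode the classical heavy chains of the mouse, and B2m encodes the light chain that every class I molecule needs. Psmb8, Psmb9 and Psmb10 encode the catalytic subunits of the immunoproteasome, which cuts proteins into peptides. Tap1 and Tap2 form the transporter that brings the peptides into the endoplasmic reticulum, and Tapbp encodes tapasin, which loads them. Nlrc5 encodes the transactivator of class I genes, which acts through a factor complex on the promoter module known as SXY. Interferons and NF-kB are also known to raise these genes.

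The promoter sequences of 8 of the 10 genes were found in RefSeq (GRCm38.p6), as windows from 250 bases before to 50 bases after the annotated start. Those of H2-K1, H2-D1 and B2m are shown because they carry the same arrangement of an NF-kB match and a spaced pair of words, marked below. The Tap1 window is shown because Psmb9 starts on the opposite strand 226 bases away, so that both genes share it. Capitals in the first 3 windows mark an NF-kB match, the word TGACG (the core of a cAMP response element, CRE) and the word ATTGG (the Y box CCAAT on the other strand). They also mark TATAAA in H2-K1 and H2-D1 and the paired interferon regulatory factor (IRF) word GAAANNGAA in B2m. In the Tap1 window they mark CCAAT, the GC box GGGCGG on the other strand, and TGACG. The windows lie at chr17:34000298-34000597 (minus strand) for H2-K1, chr17:35262844-35263143 (plus) for H2-D1, chr2:122147437-122147736 (plus) for B2m and chr17:34187306-34187605 (plus) for Tap1.
H2-K1: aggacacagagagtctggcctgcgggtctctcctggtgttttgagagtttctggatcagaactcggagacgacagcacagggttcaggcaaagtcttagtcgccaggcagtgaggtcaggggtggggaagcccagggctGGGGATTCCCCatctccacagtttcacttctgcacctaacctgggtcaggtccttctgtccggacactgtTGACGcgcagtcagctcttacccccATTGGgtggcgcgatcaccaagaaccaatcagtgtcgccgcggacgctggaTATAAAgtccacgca
H2-D1: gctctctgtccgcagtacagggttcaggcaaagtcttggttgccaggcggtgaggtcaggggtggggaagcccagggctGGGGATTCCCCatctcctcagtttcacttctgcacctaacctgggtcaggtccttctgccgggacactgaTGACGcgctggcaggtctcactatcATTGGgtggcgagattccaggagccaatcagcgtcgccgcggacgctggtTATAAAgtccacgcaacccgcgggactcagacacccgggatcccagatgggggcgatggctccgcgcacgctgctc
B2m: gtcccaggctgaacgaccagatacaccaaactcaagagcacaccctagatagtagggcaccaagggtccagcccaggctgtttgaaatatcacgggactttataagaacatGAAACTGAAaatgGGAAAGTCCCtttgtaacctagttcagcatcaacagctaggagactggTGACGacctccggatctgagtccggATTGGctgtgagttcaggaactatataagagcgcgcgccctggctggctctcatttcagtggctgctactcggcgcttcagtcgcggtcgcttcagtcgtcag
Tap1: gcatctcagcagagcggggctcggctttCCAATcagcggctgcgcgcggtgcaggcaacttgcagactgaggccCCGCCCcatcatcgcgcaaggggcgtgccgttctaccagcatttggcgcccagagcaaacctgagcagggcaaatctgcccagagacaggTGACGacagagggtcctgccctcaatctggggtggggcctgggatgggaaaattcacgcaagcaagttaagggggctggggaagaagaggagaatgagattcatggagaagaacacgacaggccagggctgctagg

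In H2-K1, H2-D1 and B2m the TGACG word was followed by ATTGG at the same spacing, with 20 bases between the words and 30 bases in all. The NF-kB match lay upstream of this pair in each, at -111 to -101 in H2-K1, -171 to -161 in H2-D1 and -126 to -117 in B2m, counted from the RefSeq start. The H2-K1 and H2-D1 windows shared 214 identical bases in a global alignment, which is 71.3% of the window. Of the other 26 pairs of the 8 windows, leaving out the overlapping pair of Tap1 and Psmb9, the identity ranged from 49% to 58.3%. Over 20150 RefSeq windows of coding genes, 1.05% held the TGACG and ATTGG pair at a distance of 15 to 25 bases, 4.97% an NF-kB match and 8.21% an IRF pair. Here and below, shares of the spaced pair also take in CGTCA, which is TGACG on the other strand, followed by ATTGG. The IRF pair was in 1 of the 8 members found there, B2m. All 3 of NF-kB, the spaced pair and TATAAA on either strand were found in 4 of the 20150 windows, and these were 2 entries of H2-K1 and 1 each of H2-D1 and B2m. That combination was chosen after the sequences had been seen. TATAAA lay past the start in H2-K1, at 36 to 41, and at -26 to -21 in H2-D1. In B2m it lay at -152 to -147 on the strand opposite to the gene, upstream of the NF-kB match.

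**Figure D1:**
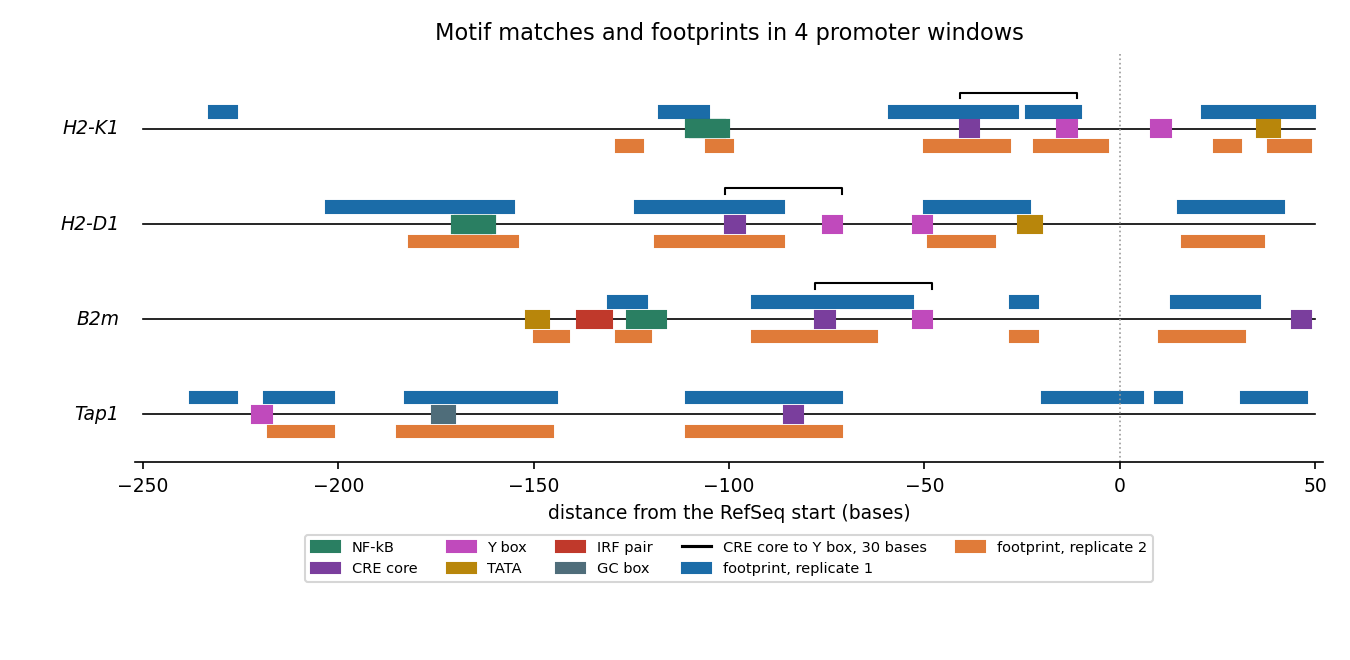
Motif matches and footprints along the promoter windows of H2-K1, H2-D1, B2m and Tap1. The x axis is the distance from the RefSeq start in bases, coloured boxes on the line are motif matches on either strand, brackets span the 30 bases from the CRE core to the Y box, and bars above and below the line are footprints of replicate 1 and replicate 2. The CRE core upstream of the start lies under a footprint of both replicates in each of the 4 windows.

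The deposited peak lists gave 62230 peaks in replicate 1 and 66839 in replicate 2 after entries that overlap were joined. They covered 14.8 Mb and 14.1 Mb, and 51709 regions were shared. How many cuts were sequenced is not given in the sources used here. Scores are signal values set by the authors, and each was a whole multiple of 1 step, 0.00741 in replicate 1 and 0.00608 in replicate 2, within 0.05 of a step for 100% of peaks. The median over the peaks was 213 steps for replicate 1, and 226 steps for replicate 2. The tissue label was checked on marker genes: 11 of 11 thymocyte genes had a promoter peak in both replicates, with summed scores of 85.7 and 54.6. Among 8 thymic epithelial genes 4 had one (20.3 and 16.6 summed): Ccl25 (12.2 and 10.1), Aire (5.23 and 3.99), Epcam (1.90 and 1.53) and Cd83 (0.978 and 0.942). Foxn1, Psmb11, Krt5 and Krt8 were at 0. None of 7 dendritic cell and macrophage genes had a promoter peak in both (0.585 and 0.899 summed), and Itgax, Csf1r, Adgre1, Xcr1 and Siglech were at 0. Of the B cell genes Pax5 had one, and Ms4a1 and Cd79a were at 0. Further, 2 of 4 endothelial and 2 of 4 fibroblast genes had one, and none of 4 hepatocyte genes. In whole tissue, fewer cells with an open promoter and less opening per cell cannot be told apart.

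The promoters of all 10 genes were accessible in replicate 1 and in replicate 2, meaning that a peak lay no more than 1000 bp from an annotated start site of transcription (TSS). Of all 21938 coding genes, 59.0% did. A promoter value was the score of the highest such peak. Of the coding genes, 12906 had such a peak in both replicates and a shared region within 1000 bp of a TSS. The median promoter value of the 10 genes was 9.02, against 6.84 for the 12906 genes with an accessible promoter, whose quartiles were 3.38 and 10.7 and whose upper decile was 14.6. On the log2(value + 1) scale the medians were 3.30 and 2.96. The genes did not form a uniform set: 3 of them stood above that upper decile and Psmb10 stood below the lower quartile. The 3 were H2-D1, Tap1 and Psmb9, and the last 2 share 1 region, which counts for each of them here and in the median.

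**Figure D2:**
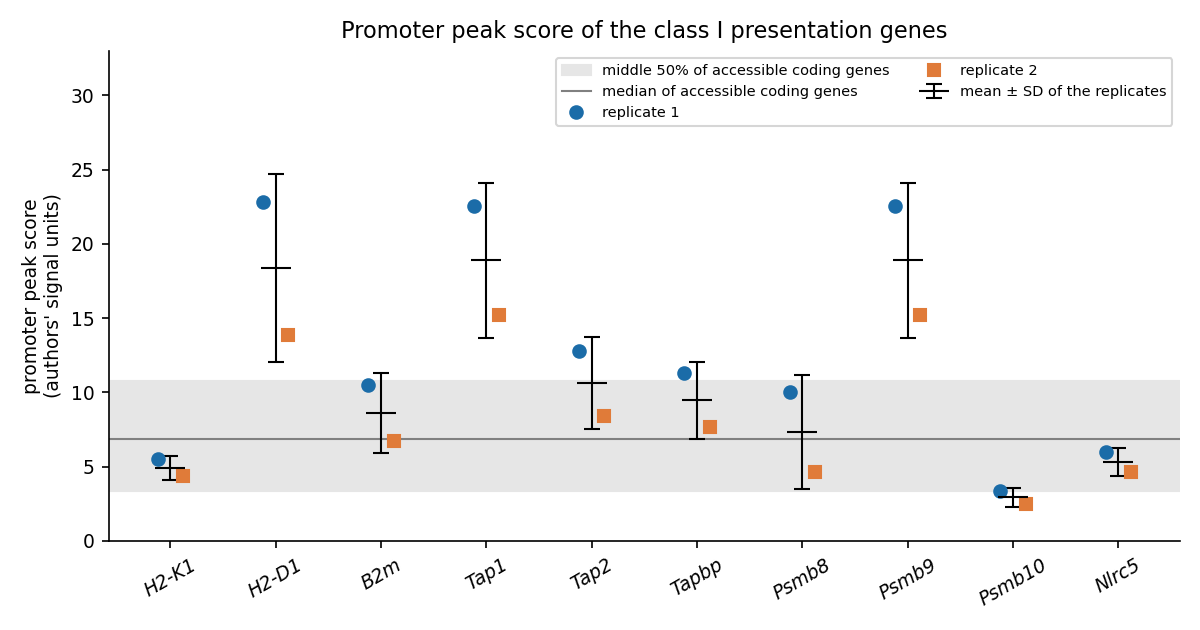
Promoter peak score of the 10 genes in the authors' signal units. Circles are replicate 1, squares replicate 2, black bars the mean ± SD of n = 2, and the grey band and line the middle 50% (3.38 to 10.7) and the median (6.84) of coding genes with an accessible promoter. H2-D1, Tap1 and Psmb9 lie above the band in both replicates, and each gene is lower in replicate 2.

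Among the heavy chains, H2-D1 stood far above H2-K1. The H2-D1 promoter scored 22.8 in replicate 1 and 13.9 in replicate 2 (18.4 ± 6.33, SD, n = 2), and 1.70% of coding genes had a value at least as high. The H2-K1 promoter scored 5.47 and 4.35 (4.91 ± 0.798), a value that 37.6% of coding genes reached. The 2 genes did not overlap: the lower H2-D1 replicate was above the higher H2-K1 replicate. The H2-K1 region, chr17:34000261-34000500, covered the TSS in the exon at the 5′ end of the gene. The H2-D1 region, chr17:35262881-35263100, began 151 bp inside the 5′ end of the GENCODE gene and covered the RefSeq start. Both regions held sequence repeated elsewhere in the genome, as 87.1% of the 31-base words in the H2-K1 region and 85.8% in the H2-D1 region occur once in the 21 chromosomes. All such words were unique in the regions of the other 8 genes, as they were in 90.6% of the promoter regions of all genes. How reads from repeated words were placed is not given in the sources used here, and neither this nor the placing of CAST/EiJ reads on the C57BL/6J genome was tested.

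The light chain gene B2m scored 10.5 in replicate 1 and 6.69 in replicate 2 (8.59 ± 2.68), and 22.4% of coding genes reached that value. Its region, chr2:122147521-122147760, covered the TSS and lay in an exon of B2m and an intron of Patl2. B2m thus stood between the heavy chains in both replicates.

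Of the transporter genes, Tap1 stood above the upper decile of accessible promoters (14.6) and Tap2 just below their upper quartile (10.7). Tap1 and Psmb9 are read in opposite directions from 1 region, chr17:34187301-34187560, which scored 22.6 in replicate 1 and 15.2 in replicate 2 (18.9 ± 5.21). Only 1.47% of coding genes had a value at least as high, and H2-D1 and this region overlapped in their range over the replicates. Tap2 scored 12.8 and 8.43 (10.6 ± 3.10), reached by 15.1% of coding genes, in an exonic region at chr17:34204361-34204600 over a TSS inside the gene, 834 bp from its 5′ end. Tapbp scored 11.3 and 7.64 (9.46 ± 2.57), reached by 19.2%, in a region at chr17:33915841-33916220 that Zbtb22, a zinc finger gene, shares. That region covers the 5′ end of the GENCODE gene. The RefSeq start of Tapbp, chr17:33919478, lies in another region, chr17:33919381-33919740, which scored 3.95 and 2.72 (3.33 ± 0.871). The value of 9.46 is thus not that of the RefSeq start.

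The immunoproteasome genes differed widely. Psmb9, on the region it shares with Tap1, was the highest. Psmb8 had 3 regions within 1000 bp of a TSS, and the highest peak was not the same one in both replicates. In replicate 1 it was a region at chr17:34196381-34196800 in an exon of Tap1, 921 bp from the 5′ end of Psmb8, at 10.0. In replicate 2 it was the region over the 5′ end, at 4.63 (7.33 ± 3.81). The region over the 5′ end, chr17:34197481-34197820, scored 7.56 and 4.63. One 480 bp into the gene, chr17:34198201-34198640, also over an annotated TSS, scored 7.01 and 3.41. The RefSeq start of Psmb8, chr17:34198195, lies just before this last region and outside the one over the 5′ end. Each of the 3 regions was lower in replicate 2.

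Psmb10 was the lowest of the 10 genes, at 3.38 in replicate 1 and 2.48 in replicate 2 (2.93 ± 0.635), and 45.8% of coding genes reached its value. The highest peak again differed between the replicates. A broad region of 1140 bp over the 5′ end, chr8:105937421-105938560, scored 3.38 and 1.67, and a region at chr8:105936961-105937380, over start sites further in, scored 2.81 and 2.48. For comparison, the standard catalytic subunits Psmb5, Psmb6 and Psmb7 had 5.70 ± 1.55, 7.40 ± 1.04 and 4.77 ± 0.217, so Psmb9 lay above and Psmb10 below all 3 of them.

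The transactivator gene Nlrc5 scored 5.96 in replicate 1 and 4.65 in replicate 2 (5.31 ± 0.929), in an exonic region over the TSS at chr8:94434181-94434460. That value was reached by 35.9% of coding genes, and it lay close to that of H2-K1.

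In descending order of the mean, the promoters ran from Tap1 with Psmb9 and H2-D1 through Tap2, Tapbp, B2m, Psmb8, Nlrc5 and H2-K1 to Psmb10. The ranges of the replicates of neighbours in this order overlapped in all but 2 places, between H2-D1 and Tap2 and between H2-K1 and Psmb10. Within a single replicate the order differed in 2 places: H2-D1 was above Tap1 in replicate 1 and below it in replicate 2, and Psmb8 was above Nlrc5 in replicate 1 and just below it in replicate 2. Whether a score is a height or a sum over the peak is not stated. For width, GC, footprints and motifs, 1 promoter region of each gene was used: the shared region near a TSS with the highest mean score. For Psmb8 this was the region in an exon of Tap1, not one of those over its start sites. For Psmb10 it was the region over start sites further in, not the broad one over the 5′ end. These regions were 220 to 420 bp wide, with a median of 260 bp for the 10 genes and 260 bp for all accessible promoters.

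**Figure D3:**
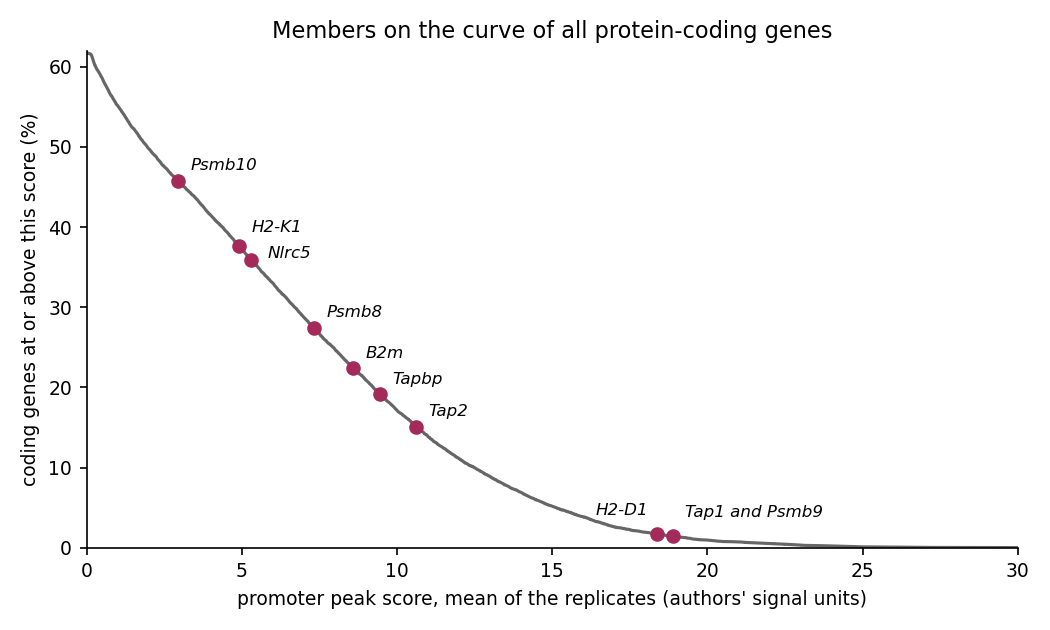
Share of all coding genes whose mean promoter score is at or above a given score, with the members as points. The x axis is the mean score of the replicates in the authors' signal units and the y axis a percentage of 21938 genes, and the members spread along the curve from 45.8% (Psmb10) to 1.47% (Tap1 and Psmb9).

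All 10 genes had a lower score in replicate 2 than in replicate 1, as had 89.2% of the 12906 coding genes with an accessible promoter. On the log2 scale, replicate 2 minus replicate 1 had a median of -0.57 over the 10 genes and -0.37 over all. Within 50 kb of the 10 genes, 62 of 69 regions near a TSS (89.9%) and 20 of 35 distal regions, over 1000 bp from any TSS, (57.1%) were lower in replicate 2, against 83.7% and 54.9% over the genome. The median log2 differences were -0.43 near a TSS and -0.05 for distal regions there, and -0.36 and -0.06 over the genome. Counted in steps of the highest peak in each replicate, all 10 genes were lower in replicate 2, as were 63.0% of all. For Psmb8 and Psmb10 these peaks lie in different regions, so for them the count does not compare 1 region between the replicates. Whether a step stands for the same amount in both replicates is not known, so the step counts are given as a second scale only. On it H2-K1 stood at 739 steps in replicate 1 and 715 in replicate 2, and Nlrc5 at 805 and 765. The gap was larger for H2-D1, with 3084 and 2285 steps, for the region of Tap1 and Psmb9, with 3047 and 2502, and for Psmb8, with 1353 and 762.

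The promoter regions of the 10 genes had a median of 61.8% GC, against 65.4% over the accessible promoters, and 6.08 CpG dinucleotides per 100 bp, against 8.64. In the RefSeq windows the medians were 56.5% GC for the 8 members and 57% for all windows, and 4.67 CpG per 100 bases for both. These sets are not those compared before. Tap2 and Nlrc5 have no such window, and the windows include those of genes without an accessible promoter. Whether the gap depends on the stretch read was therefore not tested. Footprints are short stretches protected from cutting inside an accessible region. A footprint of both replicates, meaning footprints that overlap by at least 1 bp, lay in the promoter region of 10 of 10 genes and of 97.7% of all accessible promoters. The median number was 3.5 for the 10 genes and 4 for all. Counting only footprints with the same start and end in both replicates left 3 of the 10 genes with one: B2m, and Tap1 and Psmb9 on their shared region.

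Motif words were counted on both strands of the promoter region. The TGACG and ATTGG pair was in 3 of the 10 genes, H2-K1, H2-D1 and B2m, and in 1.70% of accessible promoters, counting TGACG or CGTCA ahead of ATTGG. With the exact span of 30 bases, a span taken from these 3 genes, it was in 33 genes with an accessible promoter, or 0.256%. The 33 include these 3 genes and H2-M3, a class I gene of the wider list. An NF-kB match was in the same 3 genes, with 5.88% of all, and TATAAA likewise, with 3.21% of all; the B2m match reads on the strand opposite to the gene. All 3 together were in 3 of 12906 accessible promoters (0.0232%), and these were B2m, H2-K1 and H2-D1, a combination chosen after its values were seen. The 4 NF-kB matches counted in H2-K1 and in H2-D1 are 1 palindromic stretch of 11 bases in each, read in overlapping words and on both strands.

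The single words of the class I promoter module were common in accessible promoters. The CRE core TGACG alone was in 6 of 10 genes and 35.7% of all, and the Y box CCAAT in 6 of 10 and 36.2%. The X1 box CCNNGNAAC, bound by RFX factors, was in 1 gene, H2-D1, with 18.2% of all. In any shared region within 1000 bp of a TSS, a reading added after the data were seen, the X1 box was in 3 genes, H2-D1, Psmb8 and Psmb10, with 28.5% of all. The CRE core was then in 9 of 10 genes, with 45.4%, and the Y box in 8, with 46.0%. Tap1 and Psmb9 count as 2 genes in each of these numbers although they share 1 region.

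The count for the word of interferon regulatory factors depended on which region was read. In the region of the highest mean score, the IRF pair GAAANNGAA was in 3 of 10 genes (B2m, Tap2 and Nlrc5) and in 5.35% of all. In any shared region near a TSS the IRF pair was in 6 of 10 genes, with Tapbp, Psmb8 and Psmb10 added, and in 10.3% of 12918 coding genes. From 250 bases before to 50 after the 5′ end of the GENCODE gene it was in 2 genes, and in the RefSeq windows in 1 of 8, where 8.21% of windows had it. The 10 genes had 1 to 6 such regions with a median of 1.5, and all coding genes had a median of 1.

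For each of the 3 added genes 1 stretch of 30 bases is shown on the strand of the gene, with IRF pairs in capitals. It is the one with the most pairs: in Psmb10 and Tapbp 2 pairs overlap, and in Psmb8 the pair reads on the other strand. The Psmb10 region holds 4 pairs in all, and the other 2 are not shown. They lie at chr8:105938164-105938193, chr17:33919628-33919657 and chr17:34198336-34198365 of mm10.
Psmb10: gcaaagacGAAAGTGAAAGAGAAgatgcac
Tapbp: ttagaagGAAAATGAAAGTGAAaggggaag
Psmb8: tactgtggctTTCGCTTTCacttccttgtc

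The Psmb10 pairs shown began 81 and 75 bases before a start site inside the gene, in the region that scored 3.38 and 1.67, and a footprint of replicate 1 alone touched them. Of the other 2, one began 24 bases before the same start and was touched by a footprint of replicate 1 alone, and one was touched by none. The Tapbp pairs lay at a start site inside the gene in a region at chr17:33919381-33919740 that scored 3.95 in replicate 1 and 2.72 in replicate 2, together with an NF-kB match 36 bases before that start. Footprints of both replicates touched the Tapbp pairs, and the Psmb8 pair, 24 bases before a start site, lay inside one of both.

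Words of general promoter factors were counted in the same way. The GC box GGGCGG was in 4 of 10 genes, where 70.4% of all had it. The ETS word CCGGAAG was in 1 (Psmb10), with 21.6% of all, and the YY1 word AAGATGGC in 1 (Tapbp), with 5.94%. The NRF1 word GCGCANGCG was in 0, with 16.8%, and the AP-1 word TGANTCA in 0, with 3.36%. The T cell words were the RUNX word TGNGGT, in 5 of 10 genes and 40.7% of all, and the E protein word CAGNTG, in 6 of 10 and 43.1%. In any shared region near a TSS the RUNX word was in 9 of 10 genes, with 57.9% of all, and in the RefSeq windows in 7 of 8, with 44.1%. In such regions ETS was in 2 genes, with 26.8% of all, YY1 in 2, with 7.65%, and AP-1 in 1, with 7.18%. A CTCF match was in 1 gene, Tap2, with 3.32% of all, and it lay inside a footprint of both replicates.

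Reading the words against the footprints narrowed the counts. A word counted as inside when the joined span of the overlapping footprints of both replicates held it. The CRE core was inside in 5 of 10 genes, H2-K1, H2-D1, B2m, Tap1 and Psmb9, with 18.4% of all accessible promoters. Both words of the TGACG and ATTGG pair were inside footprints in H2-K1 alone, with 0.248% of all, and so was any Y box, with 13.5%. In H2-D1 and B2m the CRE core was inside a footprint and the ATTGG word of the pair was not.

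An NF-kB match was inside a footprint of both in 2 genes, H2-K1 and H2-D1, with 0.868% of all. In H2-D1 the footprint of replicate 1 ran from -203 to -156 and that of replicate 2 from -182 to -155, each over the whole match. In H2-K1 the footprint of replicate 1 ran from -118 to -106 and that of replicate 2 from -106 to -100, so each covered part of the match and they met at a single base. The IRF pair was inside in 1 gene, Nlrc5, with 0.938% of all, and the GC box in 4, with 52.9%. With peaks, promoter regions and footprints all taken from replicate 1 alone, the IRF pair was in the region of 4 genes and inside a footprint in 2. With all 3 from replicate 2 alone it was in the region of 3 genes and inside a footprint in 0. At B2m a footprint of replicate 1 touched the IRF pair and none of replicate 2 did.

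Within 50 kb of the 10 gene bodies, windows that overlap were merged into 6, of 0.825 Mb in all. They held 104 shared regions, or 12.6 per 100 kb, against 1.90 per 100 kb over the genome. The windows were laid around genes, whereas the genome figure takes in stretches without genes. The density in like windows around other coding genes was not computed. Of the 104 regions 69 lay within 1000 bp of a TSS. The other 35 were distal, with a median score of 2.42, against 1.45 for the 29398 distal regions of the genome. A CTCF match was in 10 of the 35 (28.6%) and in 21.3% of all distal regions. The median number of distal regions per gene was 7.5 for the 10 genes, 3 for genes with an accessible promoter and 2 for all coding genes. In this median Psmb9, Tap1, Psmb8 and Tap2 enter with 9, 9, 10 and 11 distal regions that they largely share, so most of these regions are counted more than once.

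**Figure D4:**
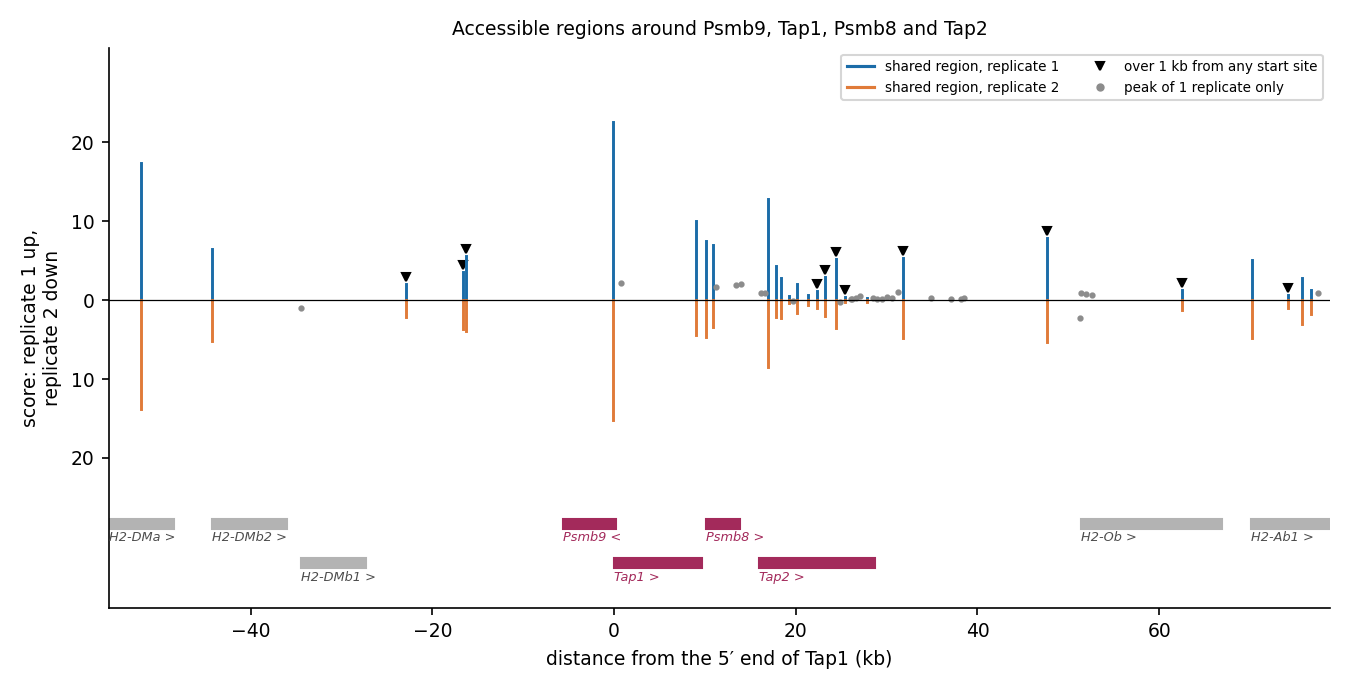
Accessible regions in the window of Psmb9, Tap1, Psmb8 and Tap2. The x axis is the distance from the 5′ end of Tap1 in kb, lines up and down are scores of shared regions in replicate 1 and replicate 2, triangles mark regions over 1 kb from any start site, grey points are peaks of 1 replicate, and bars are coding genes with their direction (members in red). The region between Psmb9 and Tap1 is the highest of the 27 in both replicates.

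The 4 genes Psmb9, Tap1, Psmb8 and Tap2 lie side by side in the class II part of the MHC, and their merged window held 27 regions, 11 of them distal, which is 20.1 per 100 kb. The distal counts here depended on the replicates used: from replicate 1 alone there were 21 for Psmb9 and for Tap1, 22 for Psmb8 and 24 for Tap2, and the looser peak list gave 15 to 18. Beyond the promoters, the highest region here was at chr17:34235041-34235260, between Tap2 and H2-Ob, with 7.90 in replicate 1 and 5.24 in replicate 2 and a CTCF match. A second with a CTCF match was at chr17:34219201-34219400, 5.32 and 4.79. Regions at chr17:34171181-34171380, between H2-DMb1 and Psmb9, had 5.54 and 3.85, and at chr17:34211821-34212060, in an exon of Tap2, 5.27 and 3.55. Of the promoter regions of other genes inside the window the highest was 68 bp from a start of H2-DMa, a class II peptide loading gene, at 17.4 and 13.8.

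**Figure D5:**
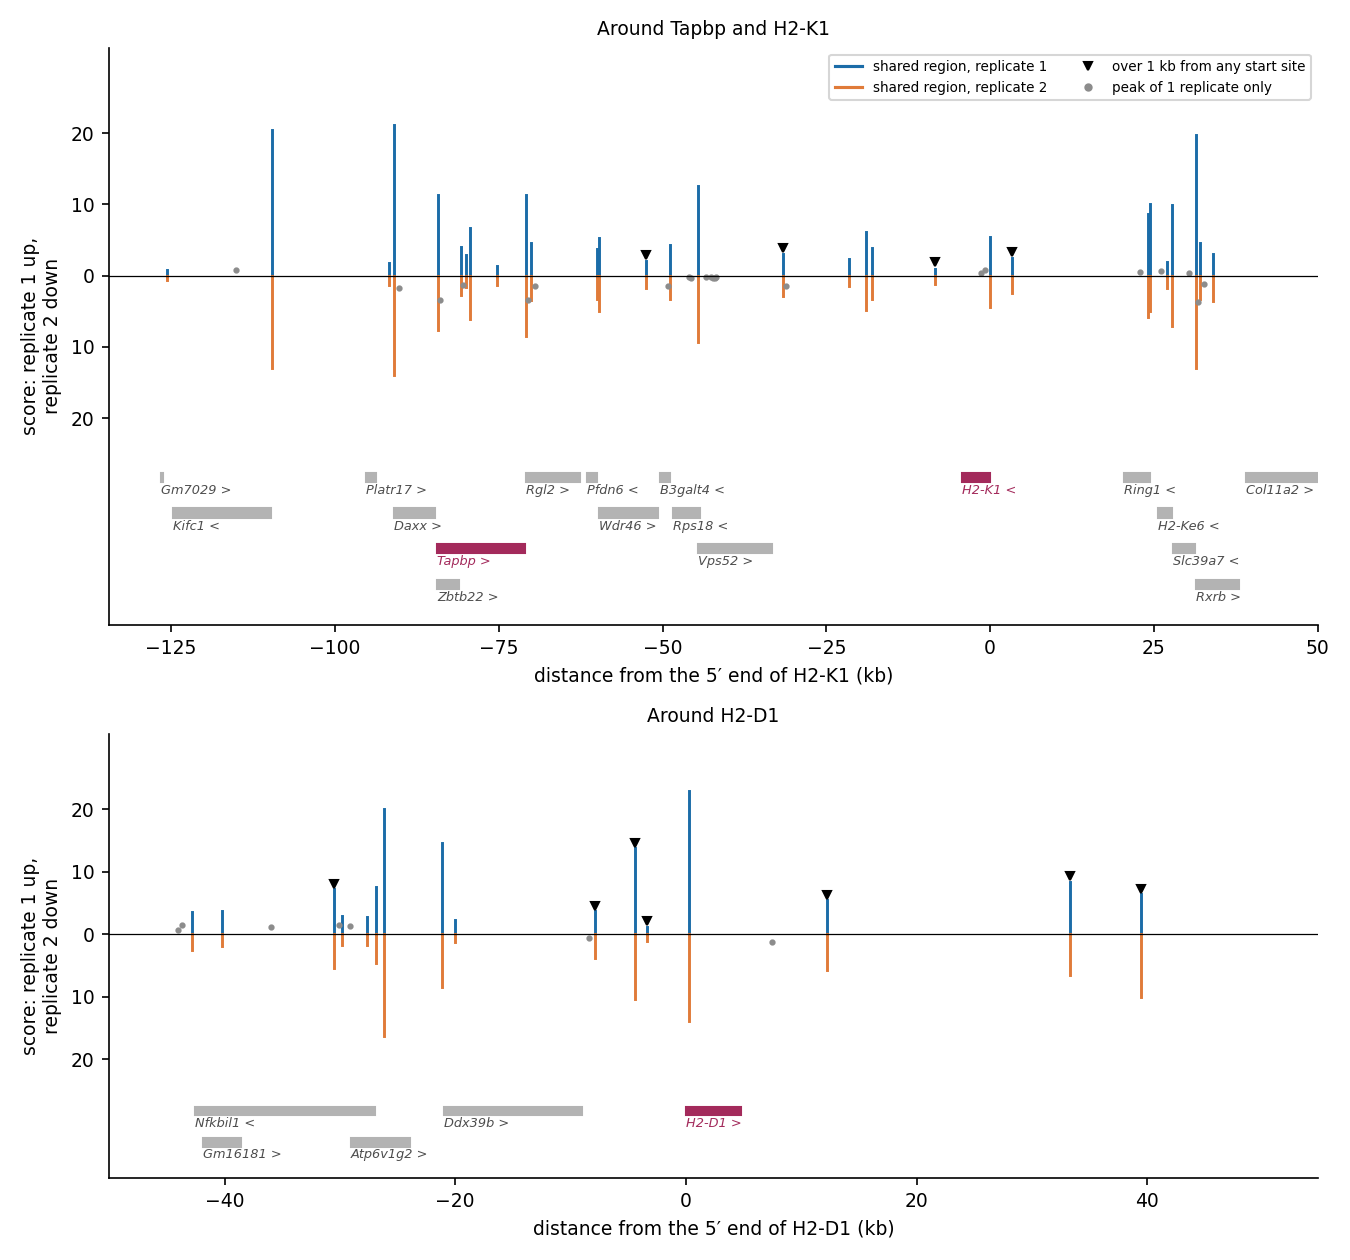
Accessible regions around Tapbp with H2-K1 (upper panel) and around H2-D1 (lower panel), drawn as scores up for replicate 1 and down for replicate 2 against the distance in kb from the 5′ end of H2-K1 or H2-D1. Triangles mark distal regions, which number 4 in the upper and 7 in the lower panel, and grey points are peaks of 1 replicate.

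H2-D1 had the highest distal region of all 6 windows, at chr17:35258241-35258440, 4290 bp from the 5′ end and outside any coding gene. It scored 13.7 in replicate 1 and 10.4 in replicate 2 (12.05 ± 2.36) and held 4 footprints of both replicates and a RUNX word but no CTCF or IRF pair match. On the other side of the gene, regions at chr17:35295901-35296120 and chr17:35302081-35302260, nearest to H2-Q1 among coding genes, had 8.41 and 6.48, and 6.36 and 10.0. The second of these was higher in replicate 2, and in the first only 45.8% of the 31-base words occur once in the genome. A region at chr17:35232101-35232320, in an intron of Nfkbil1 and nearest to Atp6v1g2, had 7.16 and 5.43. One at chr17:35274861-35275040 had 5.40 and 5.81. The highest other promoter region in the window, at 20.02 and 16.3, lay over a start of Atp6v1g2 and within 1000 bp of one of Nfkbil1. The region over the start of Nfkbil1 had 7.56 and 4.66.

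The merged window of Tapbp and H2-K1 held 30 regions, of which 4 were distal, and none of the 10 highest distal regions of the 6 windows was among them. The distal region nearest to the 5′ end of H2-K1, at 3194 bp, had 2.43 in replicate 1 and 2.41 in replicate 2, and 49.4% of its 31-base words occur once in the genome. A region at chr17:33981201-33981460 had 6.08 and 4.80, with 58.7% of such words. It lay 34 bp from a start of CR974462.6, which is not annotated as coding, and so was not counted as distal. Daxx, a histone chaperone gene, had the highest other promoter, at 21.1 and 13.97.

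Around B2m there were 9 regions with 4 distal, around Nlrc5 12 with 8 distal, and around Psmb10 10 with 1 distal. The distal regions near B2m stayed between means of 0.855 and 1.25. Of those near Nlrc5 the highest lay in its intron, 2.85 in replicate 1 and 3.40 in replicate 2. That near Psmb10, at chr8:105930741-105930940 in an exon of Pskh1 and nearest to the start of Ctrl, had 6.44 and 7.40. The highest promoters of other genes were those of Spg11 (14.9 and 10.6), Herpud1 (14.6 and 11.6) and Pskh1 (11.0 and 6.92).

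A wider list of class I genes put the 10 in context. Of its 50 genes annotated as coding, 42 had an accessible promoter in both replicates. All 6 loading and trimming genes and all 3 proteasome activator genes did, 20 of 21 regulators, 3 of 4 other catalytic subunits, and 10 of 16 other class I genes. Against the 59.0% of all coding genes, the other class I genes were thus the group nearest to the background. No peak in both replicates was found for H2-Q1, H2-Q6, H2-Q10, H2-M2, H2-M5 and Fcgrt, the neonatal Fc receptor gene. Psmb11, the subunit of the cortical epithelial thymoproteasome, and Ciita, the class II transactivator, had none either and stood at 0.

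Among the wider list the 8 highest promoters were those of Nfya, Ifngr1, Calr, Hspa5, Creb1, Rfxank, Canx and Jak1. Nfya, a subunit of the factor that binds the Y box, had 25.96 in replicate 1 and 18.1 in replicate 2 (22.03 ± 5.55), above each of the 10 genes. Ifngr1, a chain of the interferon gamma receptor, had 20.1 ± 3.26 and its kinase gene Jak1 12.4 ± 1.89. Calr, the gene of the loading chaperone calreticulin, had 17.5 ± 3.47, Canx (calnexin) 14.2 ± 3.34 and Hspa5 (BiP) 14.8 ± 4.33. Creb1, which binds the CRE, had 14.8 ± 4.22 and Rfxank, of the RFX complex, 14.6 ± 3.04. In each of these 8 genes replicate 2 was lower, as in the 10 genes.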

How the data were processed

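DNase-seq intervals of 2 thymus samples were used, on mm10 per the labels. Each peak of the deposited lists has a signal score, and the shorter (strict) list of each sample was used. The deposited FDR tracks hold a value per stretch of bases and list stretches under 0.05. At 0.001 or less they cover 100% of the promoter regions of the 10 genes (also the median over all accessible promoters). The deposited footprints hold no other value than the constant 0.01 and were used as positions. Reads were not analysed here. The sources used here name no aligner, peak caller or footprint tool, and no depth.

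Entries of a list that overlap were joined with their highest score. Peaks were shared from 1 bp of overlap. Start sites came from GENCODE M21, and distal regions were over 1000 bp from any. Values are means ± SD over n = 2. The 16 motifs were searched on both strands, NF-kB and CTCF by their consensus. One motif and one marker gene are not reported here. With 1 group of 2 samples no test was made. The genes named were the members, genes sharing their promoter regions, the 8 highest and all without a peak of the wider list, the nearest gene of the 10 highest distal regions, and the highest other promoter of each window. The members and lists were chosen with earlier results of these data known. Steps were tested on simulated data. Alternatives changed the replicates, peak list, overlap, promoter window, start sites, pseudocount (0.1 for 1), reach, footprint matching and motif window. Python 3.11.15, numpy 2.4.6, pandas 2.3.3, pysam 0.24.0, biopython 1.88 and samtools 1.23.1 were used.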

Additional observations from a re-analysis of the deposited data

How the results depend on the processing

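The count of 10 genes with an accessible promoter was the same in each alternative run (other replicate, peak list, overlap, promoter window and start site choices), and 41 to 43 of the wider list were accessible. A reach of 25000 bp gave 65 regions and a median of 4.5 distal regions per gene, and 100000 bp gave 172 and 14. Footprints depended most on the matching: with identical ends in both replicates, 3 footprints were left, in 3 genes, in place of 36 in 10 (those of the region that Tap1 and Psmb9 share count for each), and the IRF pair and the TGACG and ATTGG pair were inside one in 0 genes. Leaving out each replicate in turn, the IRF pair was inside a footprint in 0 to 2 genes. Reading any shared region within 1000 bp of a TSS, a choice made after seeing the data, put the IRF pair in 6 genes; of 13 other motif counts 5 moved, all 5 upwards. Among 344 single values recomputed under the other settings 64 moved, 31 up and 33 down. All 64 were counts, which had changed by more than 1.5 times or from or to 0. Leaving out 1 of 2 replicates moves a mean by less than its SD in any case, so for the promoter values that setting decides nothing. With both replicates kept, the promoter values were unchanged except for Psmb8 and Psmb10. Psmb8 went from 7.33 to 6.10 with a promoter window of 500 bp, and Psmb10 from 2.93 to 2.52 with the 5′ end only. The causes were not tested. No paired analysis was possible because there is 1 group. With 2 samples, an SD rests on 1 difference, and depth limits low scores, where a step is a larger share of the value.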

Other observations

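Peaks found in 1 replicate were spread unevenly over the 6 windows. Around Psmb9, Tap1, Psmb8 and Tap2, 24 of the 51 peaks of replicate 1 had no partner in replicate 2, with a median score of 0.444 and a highest of 2.21, and 4 of the 31 peaks of replicate 2 had none in replicate 1. Under 18 of those 24 peaks the FDR track of replicate 2 listed no base below 0.05, and under 2 it listed one at 0.001 or less. Around Tapbp and H2-K1 the order was the other way: 16 of the 46 peaks of replicate 2 had no partner, with a median of 1.23 and a highest of 3.70, against 6 of the 36 of replicate 1. Under 8 of the 16 the FDR track of replicate 1 listed no base, and under 7 it listed one at 0.001 or less. Around Nlrc5 0 of 12 peaks of replicate 1 and 1 of 13 of replicate 2 had no partner.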
